A study of Mus musculus with 6 samples.

Results

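The genes described here build the postsynaptic side of the neuromuscular junction, the contact between a motor nerve and a muscle fibre. They were chosen by name: the 5 subunits of the muscle nicotinic acetylcholine receptor (Chrna1, Chrnb1, Chrnd, Chrng and Chrne) and 5 genes that assemble the synapse around it (Lrp4, Musk, Dok7, Rapsn and Colq). All 10 were on the array, with 13 of its 55681 probes, and 9 of the 10 were bright enough to be tested. RNA came from FACS-sorted primary myoblasts of skeletal muscle from male C57BL/6 mice aged 3 months. 3 arrays held cells given TGFb, a secreted growth factor known for promoting fibrosis, for 4 days, and 3 held untreated cells grown in the same serum-rich medium. The labels call these separate biological replicates, but the arrays of untreated replicates 1 and 2 carry the same number in their deposited names and were the most alike of any pair (r = 0.996 across genes), so p-values may measure less than the spread between cultures.

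The muscle receptor is a pentamer of alpha, beta and delta subunits with either gamma or epsilon. Gamma belongs to the fetal receptor and to muscle without innervation, and epsilon replaces it in the adult junction. Nerve-derived agrin binds LRP4, which activates the kinase MuSK; DOK7 sustains that activity, and rapsyn then clusters the receptors, while the collagen tail ColQ anchors acetylcholinesterase in the synaptic cleft. Myogenic factors act on the promoters of several of these genes through E-boxes, and nerve-derived signals act on others through the N-box, a site for Ets-family factors.

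The probe that measured the fetal subunit is given first, because the fall of Chrng rests on it. It lies at chr1:89106072-89106353 on mm9 (plus strand), a span longer than its 60 bases, and the array's annotation assigns it to the RefSeq transcript of Chrng.
Chrng probe: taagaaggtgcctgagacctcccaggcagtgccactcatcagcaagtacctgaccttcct
RefSeq's promoter table (GRCm38.p6, 250 bases before to 50 after the transcript start) matched 6 of the 10 members. The promoters of Chrng, of its adult counterpart Chrne and of Chrna1, a subunit that both receptor forms share, are printed for comparison. They lie at chr1:87205561-87205860 (plus strand) for Chrng, chr11:70619145-70619444 (minus strand) for Chrne and chr2:73580289-73580588 (minus strand) for Chrna1. Capitals mark the E-box CANNTG and the N-box core CCGGAA, searched on both strands.
Chrng promoter: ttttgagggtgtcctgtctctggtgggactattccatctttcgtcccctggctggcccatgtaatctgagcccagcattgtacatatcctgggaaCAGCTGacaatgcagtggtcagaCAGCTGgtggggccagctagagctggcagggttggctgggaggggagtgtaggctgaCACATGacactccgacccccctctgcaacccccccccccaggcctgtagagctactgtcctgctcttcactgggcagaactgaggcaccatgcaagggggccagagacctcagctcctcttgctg
Chrne promoter: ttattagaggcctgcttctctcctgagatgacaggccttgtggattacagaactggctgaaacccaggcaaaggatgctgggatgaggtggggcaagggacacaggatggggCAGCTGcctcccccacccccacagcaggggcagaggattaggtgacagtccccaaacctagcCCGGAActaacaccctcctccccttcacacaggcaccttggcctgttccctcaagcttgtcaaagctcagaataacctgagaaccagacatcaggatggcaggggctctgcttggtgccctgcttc
Chrna1 promoter: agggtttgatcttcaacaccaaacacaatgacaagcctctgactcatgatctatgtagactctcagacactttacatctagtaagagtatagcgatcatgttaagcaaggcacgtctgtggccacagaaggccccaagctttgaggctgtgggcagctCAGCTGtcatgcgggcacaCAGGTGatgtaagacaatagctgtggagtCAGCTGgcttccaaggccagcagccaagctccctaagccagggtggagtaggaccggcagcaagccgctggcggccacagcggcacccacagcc
Chrng and Chrna1 each held 3 E-boxes, and in both genes 2 of them read CAGCTG, a subset of CANNTG. Over all 32851 promoters of this length, 17.6% held 3 or more E-boxes and 1.9% held 2 or more CAGCTG. Chrne held 1 E-box, also CAGCTG, and alone among the 6 matched members held the N-box core, as did 14.9% of all promoters. Musk and Chrnb1 had 3 E-boxes each, of which 1 in Musk and 0 in Chrnb1 were CAGCTG, and the first of the 2 listed Dok7 starts had 1. The map of motif matches shows the positions. A match describes these letters and is no measure of binding.

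**Figure D1:**
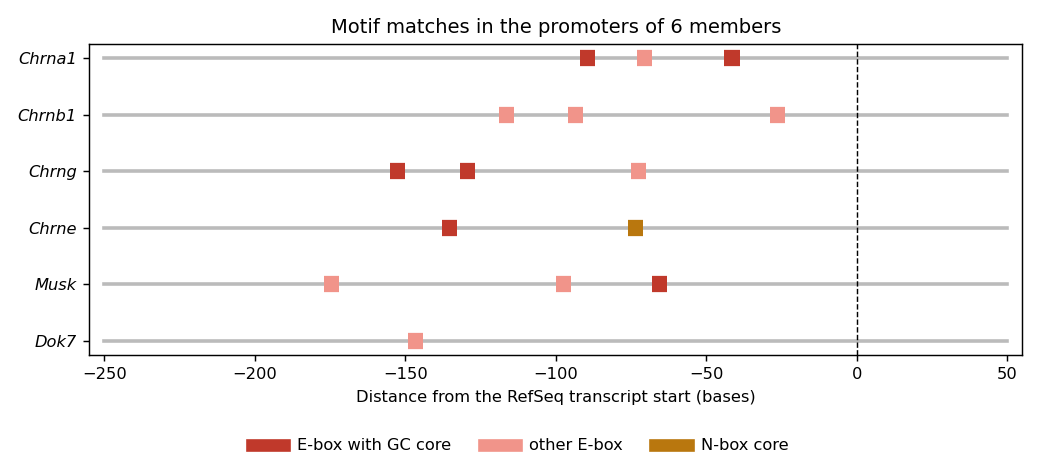
Positions of motif matches in the promoters of 6 members, in bases from the RefSeq transcript start (dashed line); each grey line covers 250 bases before to 50 after it, and for Dok7 the first listed start is drawn. Chrng and Chrna1 each hold 2 E-boxes with a GC core, and Chrne holds the N-box core.

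The arrays differed more by scan day than by treatment. Day 1 held the arrays of TGFb replicate 1 and of untreated replicates 1 and 2, and day 2 the other 3. A TGFb array and an untreated array of 1 scan day correlated across genes at 0.970 to 0.977, whereas 2 arrays of 1 group from both days reached 0.919 to 0.929. Scan day is what the file headers record, and what else differed between the days was not tested. Each change is therefore given from a fit on treatment alone and from a day-adjusted fit, which also estimates a shift between scan days. The 75th percentile of processed intensity was 879 to 1578 per array, and the share of probes well above background was 50.8% to 55.8%. Of the myoblast markers, 7 of 8 were well above background on all 6 arrays, with Myf5 the exception. All 10 markers of differentiating muscle were also well above background on all 6.

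In the fit on treatment alone, Colq fell after TGFb and the other 8 tested members did not pass the test (limma, adjusted p over 21960 genes). Of all genes 1.4% passed, 0.706% as falls and 0.697% as rises. No member rose, and at an unadjusted p under 0.05 there were 0 higher and 3 lower, where 5.72% and 5.79% of all genes were. In the day-adjusted fit, Chrng and Chrnd joined Colq, so that 3 of 9 tested members fell and 0 rose, where 10.2% of all genes passed, 5.61% as falls and 4.6% as rises. The median log2 fold change of the 9 was -0.35, against 0.046 for all genes tested (-0.46 against 0.041 after day adjustment). Levels are given below as log2 of processed intensity over the 75th percentile of the same array.

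Colq encodes the collagen tail that tethers acetylcholinesterase to the synaptic basal lamina. Its level was -2.56, -2.09 and -1.58 in the TGFb arrays, against 1.17, 0.99 and 1.85 in the untreated arrays. Every TGFb array lay below every untreated array, by more than the spread within either group. The mean was -2.08 ± 0.49 in TGFb cells and 1.34 ± 0.45 in untreated cells (SD, n = 3 each), a log2 fold change of -3.42 ± 0.39 (SE; limma adjusted p = 0.0201), or 10.67-fold lower. In the day-adjusted fit the value was -3.67 ± 0.19 (limma adjusted p = 0.00187), and it was -3.65 within day 1 and -3.69 within day 2. Without day adjustment the call was lost when any array but untreated replicate 3 was left out: the limma adjusted p was 0.0568, 0.139 and 0.079 without TGFb replicates 1, 2 and 3, and 0.144 and 0.136 without untreated replicates 1 and 2. Over all genes, 0 rose and 0 fell without TGFb replicate 2 or untreated replicate 1 or 2. Without TGFb replicate 3, 2 rose and 0 fell, and without TGFb replicate 1, 35 rose and 22 fell. Losing the call in these fits was therefore not particular to Colq. In the day-adjusted fit, leaving out any single array gave Colq adjusted p-values from 0.00427 to 0.0323. In bulk RNA, fewer cells that express a gene and less of its RNA per cell cannot be told apart.

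The array has a second, dimmer Colq probe. It was well above background on 1 of 3 TGFb arrays and on all 3 untreated arrays, and its difference of -1.53 ± 0.74 missed the threshold (adjusted p = 0.544 in the limma fit over 30154 probes; -1.85 ± 0.70, adjusted p = 0.18 in the day-adjusted fit). Both probes had every TGFb array below every untreated array, but on the dimmer probe TGFb replicate 3 (-4.49) lay close to untreated replicate 2 (-4.41). That probe differed by -3.25 within day 1 and by -0.44 within day 2. The probes thus differed in size, and the mean of the 2 gave -2.47 (limma adjusted p = 0.0911).

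**Figure D2:**
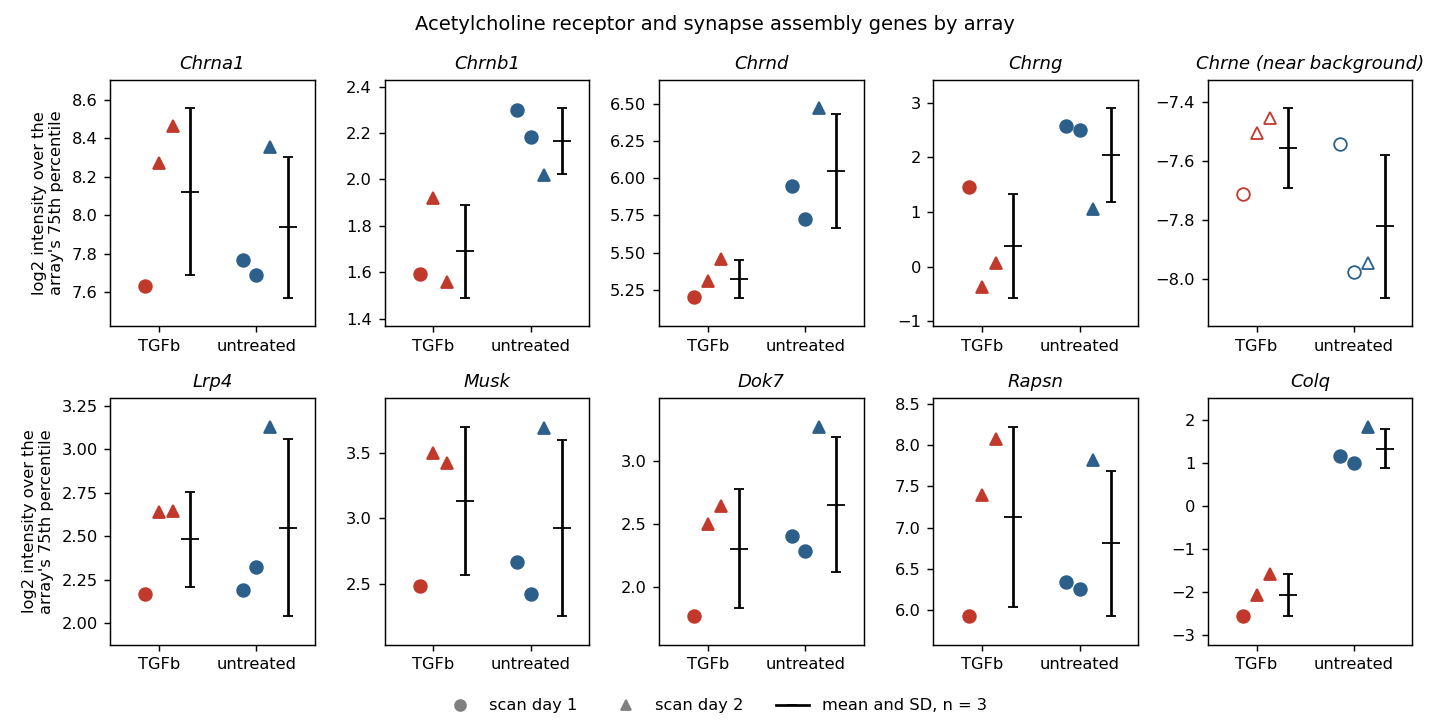
Level of each member on every array, as log2 processed intensity over the array's 75th percentile, with TGFb left of untreated; circles and triangles are scan days 1 and 2, bars are mean and SD (n = 3), and each panel has its own vertical scale. Colq is lower on all 3 TGFb arrays, Rapsn and Musk follow scan day, and the open symbols of Chrne mark a probe that was not well above background on any array.

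Chrng, the fetal gamma subunit, had levels of 1.46, -0.37 and 0.07 in the TGFb arrays and 2.58, 2.50 and 1.05 in the untreated arrays. The groups overlapped, since TGFb replicate 1 lay above untreated replicate 3, but on each scan day the TGFb arrays were the lower ones. Without regard to scan day the log2 fold change was -1.66 ± 0.64 (SE, n = 3 each; limma adjusted p = 0.401). In the day-adjusted fit it was -1.14 ± 0.18 (limma adjusted p = 0.0196), or 2.21-fold lower, with -1.08 within day 1 and -1.20 within day 2. That call held without TGFb replicate 2 or 3 (adjusted p = 0.0293 and 0.0158) and not without TGFb replicate 1 (0.099) or untreated replicate 1, 2 or 3 (0.0984, 0.0941 and 0.165).

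Chrne, the adult epsilon subunit, was not well above background on any of the 6 arrays. Its processed intensity lay between 3.98 and 7.80, while the dimmest probe that was well above background had 18.6 to 31.8, depending on the array. The Chrng probe was well above background on all 6. No fold change of Chrne and no ratio of Chrng to Chrne is given, so these arrays show a lower gamma transcript in the day-adjusted fit and no measurable epsilon transcript in either group. Whether Chrne changed below that limit was not detectable.

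Chrnd, the delta subunit, is the neighbour of Chrng on chromosome 1, with 0 annotated genes between them in RefSeq. Its level was 5.21, 5.31 and 5.45 in the TGFb arrays and 5.95, 5.73 and 6.47 in the untreated arrays. The groups did not overlap. The log2 fold change was -0.72 ± 0.30 (SE, n = 3 each; limma adjusted p = 0.429), and in the day-adjusted fit -0.86 ± 0.18 (limma adjusted p = 0.0432). On day 1 the difference was -0.63 and on day 2 -1.09. The day-adjusted call was lost whichever single array was left out (adjusted p = 0.0528 to 0.265).

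Chrnb1, the beta subunit, also had every TGFb array (1.595, 1.92 and 1.56) below every untreated array (2.30, 2.18 and 2.02). Its difference of -0.47 ± 0.25 did not pass the limma test (adjusted p = 0.575, and 0.184 in the day-adjusted fit). Colq, Chrnd and Chrnb1 were thus the 3 of 9 tested members whose TGFb arrays all lay lower, an arrangement found for 9.49% of all genes. Chrna1, the alpha subunit that carries the main part of the acetylcholine binding sites, was bright in both groups, at 7.63, 8.27 and 8.46 in the TGFb arrays and 7.77, 7.69 and 8.36 in the untreated arrays. Its day 2 arrays were the highest in both groups. The log2 fold change was 0.19 ± 0.35 (limma adjusted p = 0.85) and -0.04 ± 0.14 in the day-adjusted fit, with a 95% confidence interval from -0.40 to 0.32. The second Chrna1 probe gave 0.56, and 0.06 in the day-adjusted fit.

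The receptor and kinase that receive agrin did not pass the test. Lrp4 had levels of 2.17, 2.64 and 2.65 in the TGFb arrays and 2.19, 2.32 and 3.13 in the untreated arrays. Those ranges overlapped, and the log2 fold change was -0.07 ± 0.35 (limma adjusted p = 0.95; -0.29, 95% interval -0.69 to 0.11, in the day-adjusted fit). Musk had 2.48, 3.50 and 3.42 in the TGFb arrays and 2.67, 2.42 and 3.69 in the untreated arrays on its brighter probe. The 2 Musk probes differed in sign without scan day (0.21 and -0.59) and were both below 0 with it (-0.14 and -0.41); none of these values passed the limma test.

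Dok7, the adaptor that activates MuSK from inside the cell, had levels of 1.77, 2.50 and 2.64 in the TGFb arrays and 2.40, 2.28 and 3.27 in the untreated arrays. On each day the TGFb arrays were lower, by 0.58 on day 1 and 0.70 on day 2. The log2 fold change of -0.35 ± 0.40 did not pass (limma adjusted p = 0.781), nor did -0.64 ± 0.14 in the day-adjusted fit (limma adjusted p = 0.0515, and 0.0443 without TGFb replicate 3). A further probe is named only by a transcript identifier, ENSMUST00000114270, but described on the array as docking protein 7. It is outside the rule and was looked up for that description. Its levels were 4.89, 4.69 and 4.98 in the TGFb arrays and 5.74, 5.66 and 5.64 in the untreated arrays, which did not overlap. The difference was -0.83 ± 0.25 (adjusted p = 0.265 over probes in limma) and -0.81 ± 0.16 in the day-adjusted fit (0.0421).

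Rapsn, the scaffold that clusters the receptors, moved most with scan day. It had 5.93, 7.39 and 8.07 in the TGFb arrays and 6.35, 6.26 and 7.82 in the untreated arrays, and the difference between days was 1.66 on the log2 scale. The sign of its treatment difference turned with the fit, from 0.32 ± 0.69 in the fit on treatment alone to -0.23 ± 0.23 in the day-adjusted fit (limma adjusted p = 0.868 and 0.57). The 95% interval of the second value, -0.82 to 0.35, covers changes in both directions. Scan day shifted the other members by -1.54 for Chrng to 1.06 for Musk, so Chrng was lower on day 2 where 7 of the other 8 were higher. Within both days, 8 of the 9 tested members were lower in TGFb cells, as were 31.9% of all genes, and Chrna1 was the exception.

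**Figure D3:**
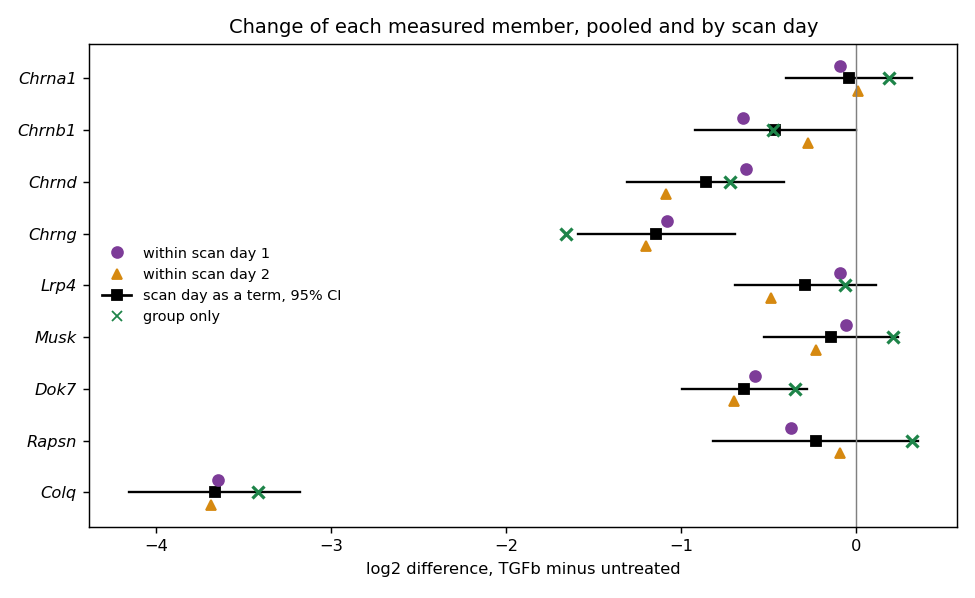
Log2 difference of TGFb minus untreated for the 9 tested members: within scan day 1 (circles), within scan day 2 (triangles), from the day-adjusted fit (squares with 95% confidence interval) and from the fit on treatment alone (crosses). Colq lies at -3.65 on day 1 and -3.69 on day 2, and the intervals of Colq, Chrng, Chrnd and Dok7 lie below 0.

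Other genes of the synapse were taken from lists of 71 genes, of which 56 were tested. In the fit on treatment alone 3 fell and 0 rose (9 lower and 3 higher at an unadjusted p under 0.05 in limma), and in the day-adjusted fit 11 fell and 3 rose. The shares of all genes given above apply to these counts too: 0.706% fell and 0.697% rose in the first fit, 5.61% fell and 4.6% rose in the second, and 5.79% were lower and 5.72% higher at an unadjusted p under 0.05. Their median log2 fold change was -0.20, against 0.046 for all genes tested.

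Acetylcholinesterase itself, the enzyme that ColQ anchors, fell as well. Ache had levels of -3.03, -3.09 and -2.69 in the TGFb arrays and -0.21, -0.53 and -1.26 in the untreated arrays. Every TGFb array lay below every untreated array, with a log2 fold change of -2.27 ± 0.35 (SE, n = 3 each; limma adjusted p = 0.048; -2.14 ± 0.29 and 0.0137 in the day-adjusted fit). The second Ache probe gave -1.78, and -1.33 in the day-adjusted fit, which did not pass (adjusted p = 0.138 in limma). On treatment alone the Ache call was also lost with normexp background correction (adjusted p = 0.0593), with no filter on dim probes (0.0605) and with the mean of its probes (0.142). Dtna, the dystrobrevin of the postsynaptic scaffold, had -0.91, -1.07 and -1.05 in the TGFb arrays and 0.49, 0.54 and 0.76 in the untreated arrays. Its groups did not overlap, and it fell by 1.61 on the log2 scale (SE 0.24, limma adjusted p = 0.0418). Without scan day in the fit, the Ache call was lost when any array but untreated replicate 3 was left out (adjusted p = 0.118 to 0.275) and the Dtna call whichever array was left out (0.0812 to 0.277). The low counts over all genes given for Colq apply to these fits too. Without untreated replicate 3, 117 of all genes rose and 78 fell.

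Of the 17 tested genes of the synaptic basal lamina and cytoskeleton, Ache and Dtna fell in the fit on treatment alone. In the day-adjusted fit 6 fell and 1 rose (limma, all adjusted p under the threshold). Besides Ache and Dtna these were the basal lamina genes Lamb2 (-0.81, adjusted p = 0.0291) and Nid2 (-1.54, 0.0242), the dystroglycan gene Dag1 (-0.92, 0.0188) and the muscle sodium channel Scn4a (-1.26, 0.0481). Scn4a was well above background on 2 of 3 TGFb arrays. Ncam1, an adhesion molecule of denervated and regenerating muscle, rose on its brightest probe (1.28, 0.0106), but its other 2 probes gave -0.65 and -1.22, the second of which fell (0.0272 over probes), and the mean of the 3 was -0.067 in the fit on treatment alone. Utrn, the synaptic relative of dystrophin, had 0.13 ± 0.64 (adjusted p = 0.944). When single arrays were left out, each of these calls was lost at least once. Ache lost it without TGFb replicate 1 or untreated replicate 1 or 2 (adjusted p up to 0.0709), and Dtna without untreated replicate 3 (0.0606). Lamb2 and Dag1 lost it without TGFb replicate 1 or any 1 untreated array (up to 0.178 and 0.14), Nid2 without TGFb replicate 2 or any 1 untreated array (up to 0.137), Scn4a when any array but TGFb replicate 1 was left out (up to 0.201) and Ncam1 without any 1 untreated array (up to 0.101).

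Among the nerve-derived signals and their receptors, 0 of 4 tested genes passed in the fit on treatment alone (1 higher and 1 lower at an unadjusted p under 0.05 in limma), and 1 rose and 1 fell in the day-adjusted fit. Nrg1, the neuregulin ligand, had -0.56, -0.54 and -0.61 in the TGFb arrays and -1.79, -1.64 and -1.86 in the untreated arrays. Its groups did not overlap, and the log2 fold change was 1.19 ± 0.23 (limma adjusted p = 0.0922), or 1.22 ± 0.14 in the day-adjusted fit (0.00819). Its receptor subunit Erbb2 was lower, at -1.02 ± 0.26 (limma adjusted p = 0.181) and -0.94 ± 0.17 in the day-adjusted fit (0.0275). Erbb3, the partner of Erbb2 in neuregulin binding, had -0.44 ± 0.35 (limma adjusted p = 0.719), and Erbb4 was well above background on 1 of 6 arrays by 1 of its 2 probes and was not tested. Agrn, whose neural form starts synapse assembly, had 1.09 ± 0.65 (limma adjusted p = 0.623; 0.56 and 0.0808 in the day-adjusted fit). Both day-adjusted calls were lost without TGFb replicate 1 or any 1 untreated array (adjusted p up to 0.0921 for Nrg1 and 0.187 for Erbb2).

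Of 18 tested effectors downstream of MuSK, 0 passed in the fit on treatment alone (also 0 at an unadjusted p under 0.05 in limma). In the day-adjusted fit Dvl1, a Dishevelled adaptor, and the kinase Fyn fell, by 0.69 and 0.71 on the log2 scale (limma adjusted p = 0.0387 and 0.0461), and both calls were lost without TGFb replicate 1 or any 1 untreated array, and that of Dvl1 also without TGFb replicate 2 (up to 0.229 for Dvl1 and 0.218 for Fyn). These 2 of 18 stand beside the 10.2% of all genes that passed the same fit, so the count shows nothing particular to the effectors.

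Of 14 tested regulators of synapse gene transcription, Myf6 fell and 0 rose in the fit on treatment alone (2 lower and 1 higher at an unadjusted p under 0.05 in limma). Myf6, a myogenic factor of the E-box binding family that is prominent in mature fibres, had -1.90, -3.30 and -3.26 in the TGFb arrays and 1.96, 2.13 and 1.07 in the untreated arrays. The groups were far apart, by a log2 fold change of -4.54 ± 0.51 (limma adjusted p = 0.02, and 0.00149 in the day-adjusted fit). Without scan day in the fit its adjusted p was 0.0359 to 0.145 when single arrays were left out, and the call was lost without TGFb replicate 2 or 3 or untreated replicate 1 or 2 (0.137, 0.113, 0.145 and 0.136). In the fits that lost it, 0 to 2 of all genes rose and 0 fell. Myog and Myod1, other E-box binding factors, did not pass in either fit (-0.46 ± 0.25 and 0.03 ± 0.69; limma adjusted p = 0.581 and 0.987; -0.51 and -0.53 in the day-adjusted fit, 0.122 and 0.0911). Etv4, an Ets-family factor, rose in the day-adjusted fit (1.01 ± 0.14, limma adjusted p = 0.0138, lost without TGFb replicate 1 or any 1 untreated array, up to 0.121), whereas its second probe gave 0.34 and did not pass.

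Of 11 neuronal nicotinic subunits, 6 were not well above background on any array and 3 were tested, with 0 called in the fit on treatment alone (0 higher and 1 lower at an unadjusted p under 0.05 in limma). Chrna9, a subunit best known from hair cells, was well above background on 1 of 3 TGFb arrays and on 3 of 3 untreated arrays. Its day-adjusted value of -2.19 ± 0.25 (limma adjusted p = 0.0078) is counted among the 11 falls, but it rests mostly on TGFb values not above background. On treatment alone it had -1.80 (adjusted p = 0.244), against -0.65 with normexp (0.298) and -0.70 in the authors' table (0.0426), so its size is not fixed.

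Most markers of muscle differentiation were lower in TGFb cells. For 9 of 10 such markers every TGFb array lay below every untreated array; 4 fell in the fit on treatment alone and 7 in the day-adjusted fit, with log2 fold changes from -4.01 to 0.025 in the first. Of all genes 9.49% were so separated, and 0.706% and 5.61% fell in these fits. Their summed level lay between 655 and 1074 in TGFb cells and between 1514 and 1976 in untreated cells, in units of each array's 75th percentile. The part of this shift in the lower Colq, Ache, Chrng and Chrnd was not tested. The summed myoblast markers overlapped, at 252 to 514 in TGFb cells and 299 to 516 in untreated cells. Singly, 2 of the 7 tested were lower on every TGFb array, Des (-1.17) and Cdh15 (-0.58). Ncam1 was higher on every TGFb array on its brightest probe (1.64), which its other probes did not share. On treatment alone 0 of the 7 passed, and in the day-adjusted fit Des fell and Ncam1 rose. Of cells that accompany the junction, the motor neuron genes Mnx1, Isl1 and Syt1 were not well above background on any array, whereas Chat was on 2 of 3 TGFb and 1 of 3 untreated arrays and Slc18a3 on 1 of 3 TGFb and 2 of 3 untreated arrays. The summed level of 7 Schwann cell markers was 2.53 to 4.30 in TGFb cells and 2.23 to 3.25 in untreated cells, and that of 6 motor neuron markers, nearly all from Snap25, 11.96 to 92.7 in TGFb cells and 11.05 to 51.0 in untreated cells. Markers of fibro-adipogenic progenitors summed to 0.288 to 0.314 in TGFb cells and 0.385 to 0.484 in untreated cells, without overlap. Singly, the 3 tested ones overlapped between the groups, with log2 fold changes of -0.07 for Pdgfra, -1.22 for Ly6a and 0.34 for Pi16. Dpp4 and Dpt were not well above background on any array. Endothelial and macrophage sums overlapped between the groups and did not exceed 3.15, with Tek and Cd68 not well above background on any array. The part of these cells in the results was not tested.

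For Chrng and Chrna1, the 3 named genes with the most similar profile over the 6 arrays were found. For Chrng these were Tfip11, Sh3rf2 and Pccb (Pearson r = 0.999, 0.999 and 0.998), and for Chrna1 Eps15, Tmem161a and Ubxn1 (r = 0.999 for each). The 6 arrays share 2 scan days, and these values describe these arrays only.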

How the data were processed

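RNA was hybridised to 6 Agilent 1-colour arrays annotated on mm9. Per the file headers, the deposited spot intensity comes from Agilent Feature Extraction, with spatial detrending and with substitute values for spots near background. A log2 table that the authors deposited beside these served as an alternative; how it was normalized is unknown here, but every column tracked its own array's log2 mean signal most closely (r = 0.992 to 0.993), with medians of 6.99 to 7.00.

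Control spots and outlier spots were left out, each array's 75th percentile of processed intensity was subtracted on the log2 scale, and spots of a probe were averaged. Probes well above background on at least 3 arrays were tested, 1 per gene by highest mean (21960 genes), with limma 3.58.1 in R 4.3.3 and Benjamini-Hochberg adjustment (threshold 0.05). The fit on treatment alone was tested on simulated data that held no shift between scan days, and the day-adjusted fit was not. Names were updated through RefSeq (26300 of 55681 probes matched).

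The members, lists and fits were chosen with earlier results of these data known. Named were all members, 10 genes whatever their values, list genes past the threshold in either fit, and the closest profiles of Chrng and Chrna1. The planned ratio of Chrng to Chrne was not computed, since Chrne was not measurable. The number of arrays limits the precision. Replicate numbers are not stated to pair cultures, so no pairing was used. The deviations of same-numbered arrays correlated at 0.80, -0.72 and 0.69 for replicates 1, 2 and 3. The arrays of replicates 1 and 3 shared a scan day and those of replicate 2 did not. These correlations therefore cannot tell pairing from scan day.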

Additional observations from a re-analysis of the deposited data

How the results depend on the processing

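Of the 10 members, 1 fell in the fit on treatment alone, 3 in the day-adjusted fit, 4 in the authors' normalized table (Chrnd, Chrng, Dok7 and Colq) and 0 with the mean of all probes of a gene. Of the synapse lists, 3 genes were called in the fit on treatment alone, 14 in the day-adjusted fit, 21 in the authors' table and 1 with every probe tested on its own. The replicate block, which takes replicate numbers as pairs, gave 0 for both (adjusted p = 0.0531 for Colq and 0.113 for Ache in limma), and over all genes 2 rose and 0 fell with it, against 1575 and 1710 in the authors' table. When single arrays were left out, with and without day adjustment, 0 to 3 members and 0 to 15 list genes were called. Over all 21960 genes these fits ran from 0 rises and 0 falls to 1535 rises and 1808 falls, the latter day-adjusted without TGFb replicate 3. With the mean of all probes of a gene, 188 of all genes rose and 209 fell. The number called thus varied over the whole array, not only for these genes. Slide as a block, normexp, quantile normalization and both other filters kept 1 member called, Colq. With these settings 118 to 365 of all genes rose and 121 to 411 fell. The ratio of Chrng to Chrne was not computed under any setting, since Chrne was not well above background on any array.

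Signs turned for genes that did not pass the test on treatment alone. Chrna1 gave -0.041 with day adjustment, -0.069 with slide as a block, -0.056 after quantile normalization, -0.11 in the authors' table and -0.093 to 0.43 with single arrays left out. Myod1 gave -0.53, -0.55, -0.14, -0.44 and -0.59 to 0.62 under the same 5 changes in that order, and passed the threshold in the authors' table (adjusted p = 0.0444). Musk gave -0.14 with day adjustment, -0.063 with slide as a block, -0.19 with the mean of its probes and -0.23 to 0.59 with single arrays left out. Rapsn gave -0.23 with day adjustment, -0.38 with slide as a block, -0.26 in the authors' table and -0.40 to 0.92 with single arrays left out. Lrp4 gave 0.0035 with normexp, and Ncam1 -0.067 with the mean of its probes. With single arrays left out, Lrp4 ranged over -0.49 to 0.22, Erbb3 over -1.07 to 0.10 and Utrn over -0.37 to 0.86. The causes were not tested. With 3 arrays a group, and signal near background for Chrne, Chrna9 and 1 Colq probe, small differences could not be measured.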

Other observations

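Foxd3, a transcription factor of the neural crest that stood among the Schwann cell markers, was not well above background on any TGFb array and was on all 3 untreated arrays. Its mean over untreated arrays was 3.03-fold above the dimmest level of any probe well above background on the TGFb arrays. The mean of Foxd3 in TGFb cells lay below that level (-7.37 against -5.54). It entered the test only through the untreated arrays, so no p-value is given.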
